A study of Mus musculus with 8 samples.

Results

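The collagen genes of mouse palm skin were measured in mice whose footpad had received pituitary adenylate cyclase-activating polypeptide (PACAP) or vehicle into the dermis, at 30 or 60 min. The members were all probes whose gene name in the scanner files is Col, a number, the letter a and a number, other than the cartilage chains Col2a1, Col9a1 and Col10a1. There were 66 such probes of 39429 on the array, and they carried 41 of its 29608 gene names. All animals were C57BL/6J mice between 9 and 10 weeks old, either wild type (WT) or lacking the PACAP receptor PAC1R (Pac1-r KO, Adcyap1r1 -/-, here KO). They received 5 µL of saline containing 0.1% BSA in the centre of the footpad, with or without PACAP at 1e-07 mol/L. The 8 RNA samples, PACAP and vehicle for each genotype and time, were hybridised as 4 pairs, and each pair lay on 2 arrays with the Cy3 and Cy5 dyes swapped. The 2 arrays of a pair hold the same RNAs and were counted as 1 replicate, so that no comparison of PACAP with vehicle has a replicate between animals. The sources used here state 6 mice per genotype, but not which mice entered an RNA sample or whether RNA was pooled.

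Collagens are secreted proteins of the extracellular matrix in which 3 chains wind into a triple helix, and glycine recurs at a fixed step along the helix. Types I, III and V form the fibrils of the dermis, where fibroblasts make them. Type IV forms the network of basement membranes, types VII and XVII hold the epidermis to the dermis, type VI forms beaded filaments around cells, and the fibril-associated collagens sit on the surface of fibrils.

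Ratios are Agilent Feature Extraction log ratios, turned to PACAP over vehicle and given on the log2 scale as the mean of both arrays, so that 0 is no difference. Levels are log2 intensities of each RNA sample after background correction and normalization, averaged over both arrays, and a level is compared here only with levels of the same probe. Of the 43020 spots that are no controls, between 78.6% and 94.5% gave a red (Cy5) signal well above background and between 54.0% and 65.3% such a green (Cy3) signal, and the number of arrays limits the precision. Over the 16146 genes whose brightest probe was well above background in both channels on all 8 arrays, called measured throughout below, the 2 arrays of a pair correlated between 0.25 and 0.67, while over all probes, dim ones included, they correlated between -0.54 and -0.31. Over the same genes the WT and KO ratios at 30 min correlated at -0.50, and over all probes at -0.37. The labels state the dye of each RNA, so the direction of each ratio was kept as labelled. The arrays of WT shared 1 slide and those of KO a second slide, and a genotype difference cannot be told apart from a slide difference. The probe for the receptor gene Adcyap1r1 was lower in KO than in WT in 4 of 4 matched samples, by 0.11 to 0.36 on the log2 scale, and the sources used here do not say whether it lies in the deleted part of the gene.

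The brightest probe was measured throughout for 26 of the 41 collagen genes. Each probe is a 60-base oligonucleotide printed on the array. The glycine repeat of the helix can be read in 5 of the 66 probes, which hold at least 3 steps of 9 bases between glycine codons (GGN) of 1 frame. They are printed 5′ to 3′ from the scanner files, with the glycine codons of that frame in capitals, since they show that these probes read helix-coding sequence.
Col14a1, A_55_P2159522: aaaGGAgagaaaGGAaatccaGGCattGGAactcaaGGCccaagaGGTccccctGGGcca
Col15a1, A_55_P2060386: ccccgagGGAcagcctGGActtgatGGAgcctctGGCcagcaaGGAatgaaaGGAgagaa
Col16a1, A_55_P2056735: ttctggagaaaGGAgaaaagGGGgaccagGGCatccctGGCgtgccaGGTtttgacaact
Col25a1, A_55_P2107711: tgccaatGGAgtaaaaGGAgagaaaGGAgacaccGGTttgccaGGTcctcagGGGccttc
Col4a4, A_55_P2143837: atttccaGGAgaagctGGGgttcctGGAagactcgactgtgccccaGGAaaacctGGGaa
The steps were all 9 bases in the probes of Col15a1, Col16a1 and Col25a1. A step of 6 bases stood between neighbouring glycine codons in Col14a1, and a step of 21 bases in Col4a4. The probes of the 4 genes flagged below for opposite signs in WT and KO at 30 min are identified here by their first 30 bases, 5′ to 3′.
Col1a1, A_55_P2118520: tgaccaactgaacgtgaccaaaaaccaaaa
Col1a2, A_51_P182303: accaagaattccgtgtggaggttggccccg
Col3a1, A_51_P515605: ataagccaaactctctgaaaccccagcaaa
Col22a1, A_55_P2031781: tcaagttcctcatgctggtttcaattgtgt
By the mm9 coordinates in the files, these probes lie at chr11:94813115-94813174 on the plus strand (Col1a1), chr6:4490619-4490678 on the plus strand (Col1a2), chr1:45405589-45405648 on the plus strand (Col3a1) and chr15:71628906-71628965 on the minus strand (Col22a1). Exons and introns of that build were not used here.

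The type I and III chains of the dermal fibril lay above vehicle after PACAP in WT at 30 min and below it in KO at 30 min, and in each genotype their ratios at 60 min were nearer to 0. Col1a1, the larger share of the type I trimer, had a level of 12.25 after vehicle and 13.02 after PACAP in WT at 30 min, and of 12.50 and 11.91 for KO. The levels 60 min after injection were 11.52 and 11.50 for WT, against 12.37 and 12.70 for KO. The highest Col1a1 level was thus in the PACAP sample of WT at 30 min, but the 4 vehicle levels spanned 0.97 and overlapped with the 4 PACAP levels. The Col1a1 ratio was 0.80 in WT at 30 min, 1.74-fold, with 0.86 and 0.74 on the 2 arrays. In KO at 30 min it was -0.58, 0.669-fold, with -0.45 and -0.71 on the arrays. At 60 min it was -0.11 for WT and 0.33 for KO. In whole skin, fewer cells of a type and less RNA per cell cannot be told apart.

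Col1a2, the partner chain of type I collagen, shared the signs of Col1a1 at 30 min but not at 60 min in WT. Its levels after vehicle and PACAP were 14.20 and 14.79 in WT at 30 min, 13.55 and 13.72 in WT at 60 min, then for KO 14.27 and 13.44 at 30 min and 14.19 and 14.43 at 60 min. The PACAP samples held both the highest level and the lowest, and the vehicle levels spanned 0.72. The Col1a2 ratios were 0.57 at 30 min and 0.18 at 60 min for WT, and -0.86 at 30 min and 0.27 at 60 min for KO. The KO value at 30 min was 0.550-fold, with -0.77 and -0.96 on the arrays. Col3a1, the chain of the type III homotrimer, had levels of 14.47 after vehicle and 15.16 after PACAP in WT at 30 min, and 14.91 and 14.19 in KO at 30 min. At 60 min they were 13.98 and 14.00 for WT, against 14.70 and 15.07 for KO. The Col3a1 ratio was 0.70 in WT at 30 min, 1.63-fold, and -0.71 in KO at 30 min, 0.610-fold. As for type I, the vehicle and PACAP levels of Col3a1 overlapped, and the vehicle levels spanned 0.92.

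**Figure D1:**
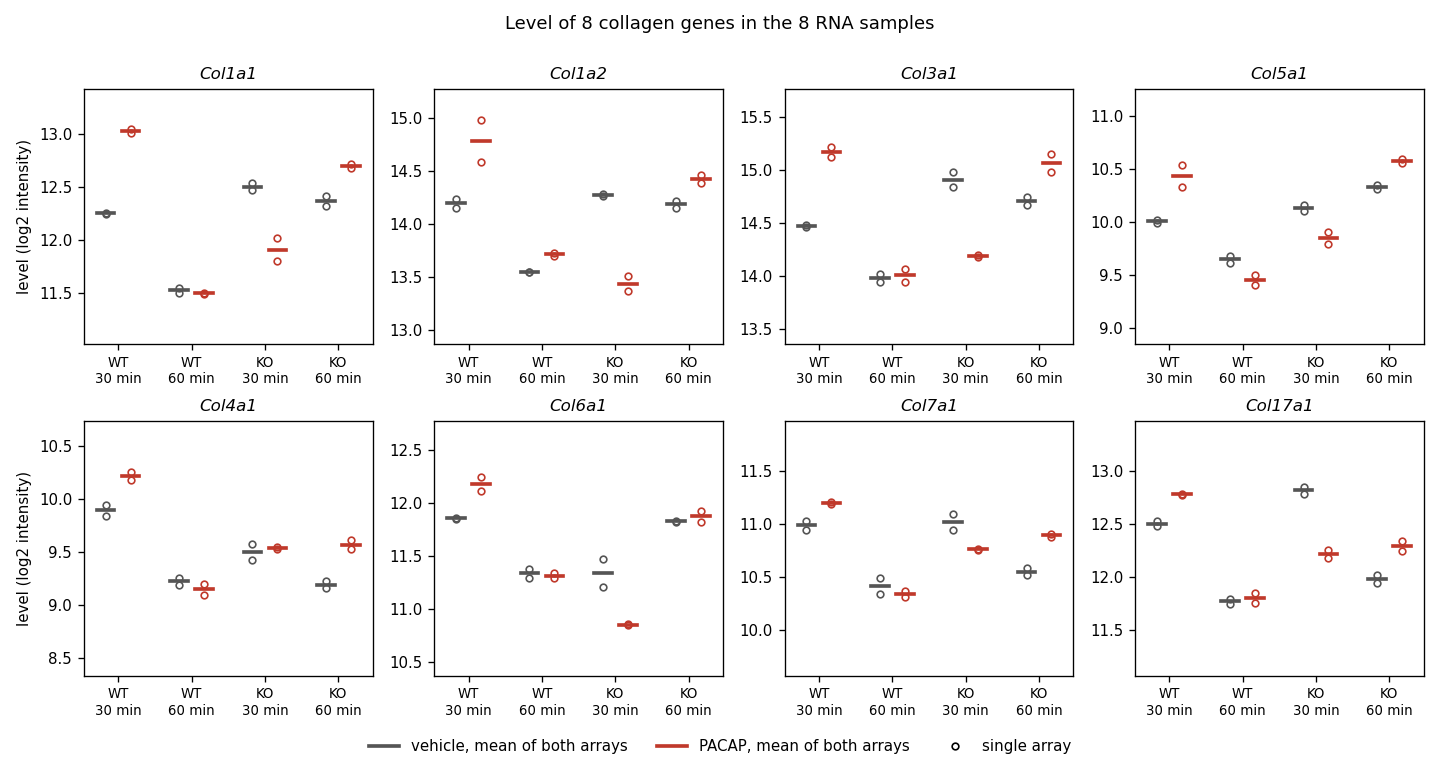
Level (log2 intensity, vertical axis) of 8 collagen genes in the 8 RNA samples, with genotype and time on the horizontal axis. Horizontal lines are the mean of both arrays of a pair, grey for vehicle and red for PACAP, and open circles are the single arrays. In WT at 30 min the red line lies above the grey one for each of the 8 genes, and in KO at 30 min it lies below for all but Col4a1. For Col1a1 the 4 grey lines alone run from 11.52 to 12.50.

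No test across animals was possible within a comparison, so calls rest on a counting rule. The stricter rule asked that the mean reach 2.0-fold or 0.5-fold, that the arrays share its direction, and that the p of the Feature Extraction software lie below 0.01 on each, and the wider rule put 1.5-fold in place of 2.0-fold. The Feature Extraction p speaks of 1 array, not of animals. By the wider rule, 2 of the 66 collagen probes were called higher in WT at 30 min, Col1a1 and Col3a1, beside 1.13% of all probes, and 0 were called lower, beside 0.261%. In KO at 30 min 3 were called lower, Col1a2, Col3a1 and Col22a1, beside 1.17% of all probes, and 0 higher, beside 1.54%. In WT at 60 min 0 were called in either direction, beside 0.748% of all probes higher and 0.165% lower. In KO at 60 min 1 was called lower, Col6a5, beside 0.228%, and 0 higher, beside 0.342%. By the stricter rule, 1 collagen probe was called lower in KO at 30 min, Col22a1, beside 0.107% of all probes, and 1 in KO at 60 min, Col6a5, beside 0.15%. Both of these calls were lost with normexp and loess ratios, which were -0.59 for Col22a1 and -0.55 for Col6a5, and that of Col6a5 also when only probes above background in both channels were kept. The stricter rule called 0 collagen probes in WT at 30 min, beside 0.254% of all probes higher and 0.0964% lower, and 0 in WT at 60 min, beside 0.583% and 0.109%. It called 0 higher in KO, beside 0.601% at 30 min and 0.142% at 60 min.

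The type V chains, which are built into type I fibrils and limit their width, followed the same signs at 30 min without passing either rule. Col5a1 ratios were 0.47 at 30 min and -0.36 at 60 min for WT, and -0.38 at 30 min and 0.40 at 60 min for KO, each with the same sign on both arrays. Col5a2 ratios were 0.60, 0.06, -0.18 and 0.18 in the same order, and Col5a3 ratios were 0.07, -0.34, -0.30 and 0.03. Col5a1 levels were lowest at 9.45 in the PACAP sample of WT at 60 min and highest at 10.58 in that of KO at 60 min, and its vehicle levels ran from 9.65 to 10.33. Col5a2 vehicle levels ran from 7.17 to 7.68 and its PACAP levels from 7.20 to 8.02, the latter in WT at 30 min. The Col5a3 levels after vehicle ran from 9.17 in WT at 60 min to 10.05 in WT at 30 min, a span larger than any of its ratios. Col5a2 lies beside Col3a1 in the genome by RefSeq's gene order, and in KO at 30 min its ratio of -0.18 was nearer to 0 than the -0.71 of its neighbour. Of the 10 fibrillar genes, 9 lay above 0 in WT at 30 min and 9 below 0 in KO at 30 min, with medians of 0.36 and -0.34. The medians at 60 min were 0.05 in WT and 0.26 in KO. Col11a1 ratios ran from -0.13 to 0.24 and were measured throughout, while Col11a2, Col24a1 and Col27a1 were not.

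No type IV chain passed either rule. Col4a1 and Col4a2, which form the common type IV trimer and lie beside each other in the genome, had ratios of 0.30 and 0.17 in WT at 30 min and of 0.01 and -0.22 in KO at 30 min. At 60 min the ratios were -0.13 and -0.28 for WT, against 0.40 and 0.27 for KO, so that both chains had the same sign in all comparisons but KO at 30 min. The Col4a1 probe is printed on 10 spots, and the SD between the spots, each the mean of both arrays, was 0.01 to 0.04 in the 4 comparisons. This SD is technical and holds no spread between animals. Col4a1 levels after vehicle were 9.89 and 9.22 in WT at 30 and 60 min and 9.50 and 9.19 in KO. Their span of 0.70 was larger than any Col4a1 ratio. Col4a5 and Col4a6, neighbours on the X chromosome that share a trimer, had ratios of 0.20 and 0.26 in WT at 30 min and -0.32 and -0.29 in KO at 30 min. For Col4a6 the other probe had the opposite signs, -0.28 and 0.28. The ratios of the brighter Col4a6 probe at 60 min were -0.12 for WT, against 0.01 for KO, and those of Col4a5 were -0.21 and 0.17. Vehicle levels ran from 8.10 to 8.78 for Col4a2, from 7.70 to 8.39 for Col4a5 and from 7.34 to 7.95 for Col4a6, each span larger than any ratio of the gene. Col4a3 and Col4a4, neighbours that share a trimer with Col4a5, were not measured throughout. The brightest Col4a4 probe had ratios of 0.80, 0.31, -0.84 and 0.19, with levels between 6.43 and 6.68 in the 8 samples. For Col4a3 the ratios were 0.97, 0.16, -0.05 and -0.24, with levels between 6.03 and 6.20. The network-forming Col8a1, a chain of short-chain type VIII collagen, had ratios between -0.39 and -0.04, and its partner Col8a2 between -0.23 and -0.03.

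The collagens that fasten the epidermis also differed by less than 1.5-fold between the arms at 60 min. Col7a1, the chain of the anchoring fibrils below the epidermis, had levels of 10.98 after vehicle and 11.19 after PACAP in WT at 30 min, 10.41 and 10.34 in WT at 60 min, then for KO 11.02 and 10.76 at 30 min and 10.55 and 10.89 at 60 min. Its ratios were 0.18, -0.15, -0.27 and 0.36 in the same order, with the same sign on both arrays each time. Col17a1, the transmembrane collagen of hemidesmosomes in basal keratinocytes, had levels of 12.50 and 12.78 in WT at 30 min, 11.77 and 11.80 in WT at 60 min, then for KO 12.81 and 12.22 at 30 min and 11.98 and 12.29 at 60 min. All 4 Col17a1 levels at 30 min but that of KO after PACAP lay above all 4 levels at 60 min. Its ratio of -0.60 in KO at 30 min passed the 1.5-fold size but not the p on both arrays. Its other ratios were 0.28 in WT at 30 min, -0.03 in WT at 60 min and 0.34 in KO at 60 min. Col18a1, a multiplexin of basement membranes, had ratios of -0.01, -0.08, -0.13 and 0.31.

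Of the 7 beaded-filament genes, 3 were measured throughout, and these are the chains of the common type VI filament. Col6a1 ratios were 0.32 at 30 min and 0.02 at 60 min for WT, and -0.50 at 30 min and 0.05 at 60 min for KO. Col6a2, its neighbour in the genome, had 0.21, -0.28, -0.34 and -0.08, and Col6a3 had 0.38, -0.12, -0.09 and 0.27. In vehicle samples, Col6a2 levels were 8.68 and 8.45 in WT at 30 and 60 min and 7.99 and 8.83 in KO, a span of 0.84 that exceeded each of its ratios. Vehicle levels of Col6a1 ran from 11.34 to 11.86 and those of Col6a3 from 10.39 to 10.92, and the PACAP levels of both genes overlapped with them. Col6a4 and Col6a6, chains that can stand in for Col6a3, were dim, with ratios between -0.38 and 0.22 for Col6a4 and between -0.19 and 0.14 for Col6a6 at their brightest probes. The call of Col6a5, another type VI chain, rests on dim signals and was lost with normexp and loess ratios. Its called probe was well above background in vehicle on 2 of 2 arrays in KO at 60 min, in vehicle on 1 array in WT at 60 min and in no other reading. The levels in KO at 60 min were 6.44 after vehicle and 5.89 after PACAP, where the probe was not well above background, so the PACAP level was at least 1.37-fold lower, with the lowest signal above background in its place. The log ratio of that probe, -3.02, is no measure of size where 1 arm is not above background. The second Col6a5 probe had a ratio of 0.00 on each array in all 4 comparisons, but it was well above background on at most 1 array per RNA sample. The Feature Extraction software had set the log ratio of part of the spots to 0, so this value is no measure of an absent difference. The called probe spans 1360 bp of the minus strand in the files (chr9:105765145-105766504), more than its 60 bases.

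Among the fibril-associated collagens, Col22a1, which is known from tissue junctions such as that of muscle and tendon, had the largest ratio of a probe measured throughout. Its levels were 7.06 after vehicle and 7.26 after PACAP in WT at 30 min, 7.16 and 6.99 in WT at 60 min, then for KO 7.42 and 6.83 at 30 min and 6.98 and 7.08 at 60 min. The vehicle sample of KO at 30 min was the highest and the PACAP sample of KO at 30 min the lowest of the 8. The Col22a1 ratio in KO at 30 min was -1.21, 0.432-fold, with -1.03 and -1.39 on the arrays, and with normexp and loess in place of the Feature Extraction ratio it was -0.59. In WT at 30 min it was 0.41. The other Col22a1 probe, also measured throughout, had a ratio of -0.36 in KO at 30 min and 0.01 in WT at 30 min, so the probes disagreed by 0.85. Over the 7 genes with several probes measured throughout, the gap between probes of a gene had a median of 0.12. Col14a1 and Col12a1, which link fibrils to their surroundings, had ratios between -0.24 and 0.15 and between -0.07 and 0.22. The helix-coding Col14a1 probe printed above had ratios between -0.18 and 0.12. Col16a1 had ratios of 0.13, -0.18, -0.35 and 0.33 at its brightest probe. Its levels after vehicle and PACAP were 11.96 and 12.14, then 11.59 and 11.47, in WT at 30 and 60 min, and 11.98 and 11.63, then 11.57 and 11.88, in KO. The vehicle and PACAP levels of Col16a1 overlapped. Col20a1 was measured throughout at both its probes, with ratios of 0.34, -0.20, -0.16 and 0.15 at the brighter and 0.44, -0.11, -0.45 and 0.17 at the other. Col9a2, a chain of type IX collagen, had ratios between -0.04 and 0.04. Among the transmembrane collagens, the brightest Col23a1 probe was measured throughout, with ratios of 0.30, 0.06, -0.15 and 0.05, and its arrays had opposite signs in each comparison.

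Seen over the family, the sign at 30 min was opposite in the genotypes. The median ratio over the 41 collagen genes was 0.17 at 30 min and -0.03 at 60 min for WT, and -0.24 at 30 min and 0.17 at 60 min for KO, beside a median of 0 over all genes in each comparison. With normexp and loess ratios the medians in KO were -0.10 at 30 min and 0.048 at 60 min, and over the genes measured throughout that in WT at 60 min was -0.11. Of all genes, 5492 had a ratio of exactly 0 in WT at 30 min, 4224 in WT at 60 min and 4291 in KO at 30 min. The medians over all genes measured throughout were -0.01, -0.03 and -0.06 in these comparisons. In WT at 30 min, 19 of the 26 collagen genes measured throughout lay above 0 on both arrays, beside 35.8% of all genes measured throughout, and 0 lay below 0 on both, beside 37.4%. In KO at 30 min, 20 lay below 0 on both arrays, beside 45.2%, and 1 above, beside 34.3%. In WT at 60 min, 12 lay below 0 on both arrays, beside 32.8%, and 1 above, beside 24.4%. In KO at 60 min, 18 lay above 0 on both arrays, beside 28%, and 2 below, beside 27.3%. Both arrays above 0 in WT and both below 0 in KO at 30 min were seen for 15 of the 26 genes, beside 28.2% of all genes. With a 1.5-fold call in either comparison added, 4 of the 66 collagen probes had these signs, beside 1.52% of all probes. These genes share their RNA samples, so they are not independent replicates, and no test was made of the shares.

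**Figure D2:**
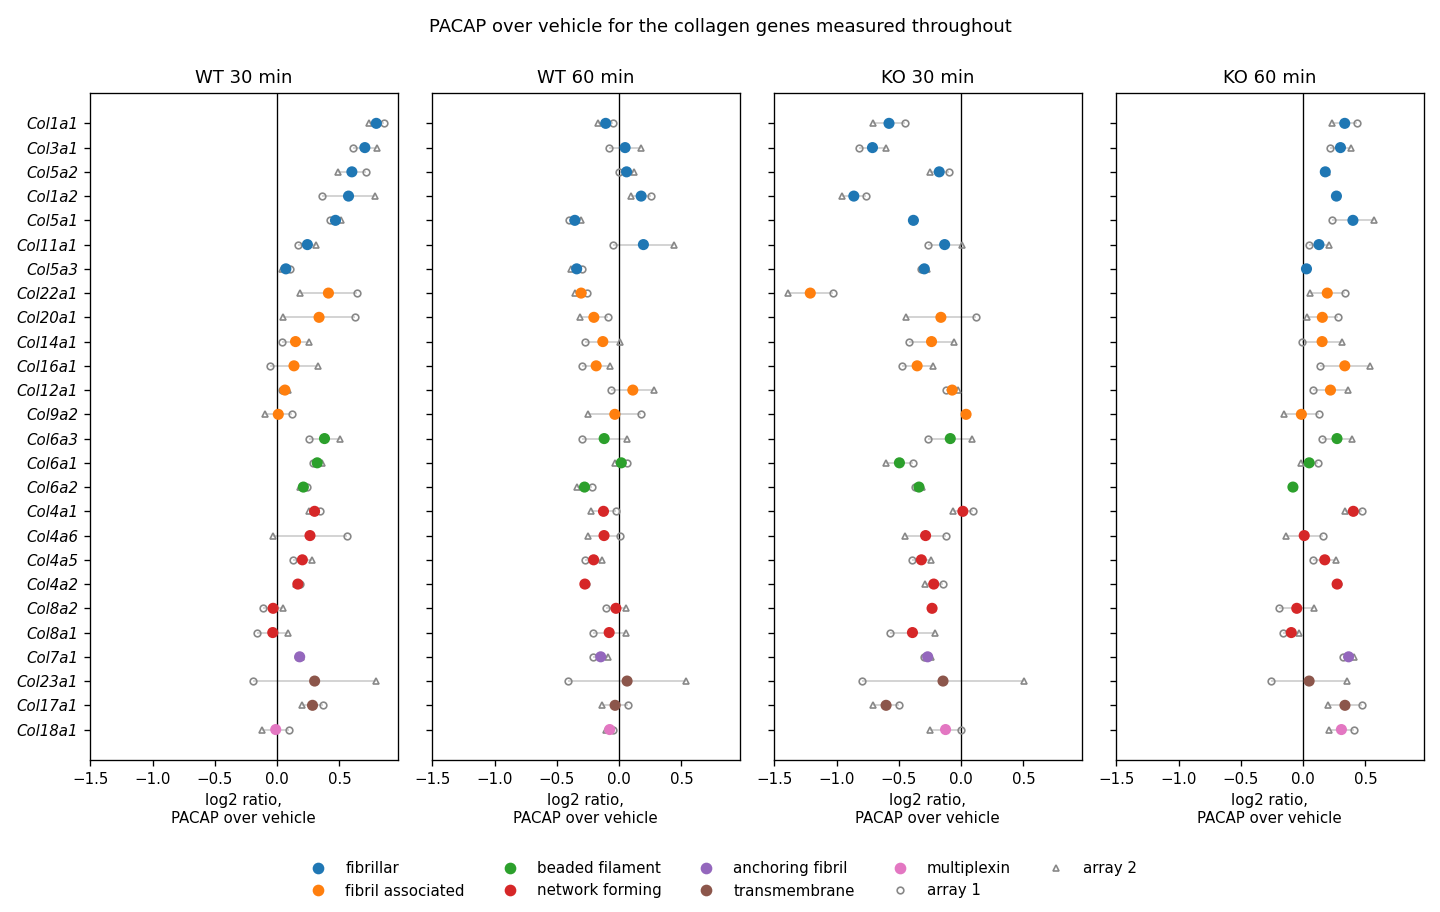
Log2 ratio of PACAP over vehicle (horizontal axis) of the 26 collagen genes measured throughout (rows), in a panel for each comparison. Filled circles are the mean of both arrays, coloured by collagen class, and open circles and triangles are the single arrays. In WT at 30 min 23 of the 26 means lie above 0 and in KO at 30 min 24 lie below 0.

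Across the comparisons, limma fits over all probes made 0 calls among the collagen genes. A fit of the mean of the 4 comparisons against 0 on 30350 probes, 54 of them collagen probes, found 0 at an adjusted p below 0.05, and at an unadjusted p below 0.05 it found 678, 2.23% of all probes, and 0 collagen probes. Without KO at 30 min it found 3086, 10.2% of all probes, and 5 of 54 collagen probes, all 5 higher. With all 4 comparisons, the 5 smallest p-values among collagen probes were those of Col22a1, at its second probe (-0.20 ± 0.11, SE), Col23a1 at its dim probe (-0.16 ± 0.09), Col27a1 (0.16 ± 0.09), Col8a2 at its second probe (-0.19 ± 0.12) and Col8a1 (-0.15 ± 0.10), each with a limma adjusted p of 1. A fit of KO against WT in the ratio, with 2 comparisons each, found 0 at an adjusted p below 0.05 and 972 at an unadjusted p, 3.2% of all probes. Without KO at 60 min the collagen probes at an unadjusted p were 12 of 54, beside 16.9% of all probes, and without WT at 60 min 6 of 54, beside 3.99%. With all 4 comparisons it found 1 such collagen probe, Col25a1 at A_55_P2160750, with a KO minus WT difference of -0.70 ± 0.27 (SE) and a limma adjusted p of 0.839. Next came Col4a3 (-0.71 ± 0.30), Col4a4 (-0.88 ± 0.38), Col26a1 (-0.41 ± 0.21) and the second probe of Col4a6 (0.39 ± 0.21), with the same limma adjusted p. Apart from Col4a6 these probes were not measured throughout. For the fibril chains the differences were -0.67 ± 0.39 for Col1a2, -0.58 ± 0.39 for Col3a1 and -0.47 ± 0.41 for Col1a1.

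For most collagens, as for most genes on the array, the vehicle samples spanned more than PACAP and vehicle differed at 30 min. The 4 vehicle samples differ in genotype, slide and time, so their span is no spread between like samples. Levels and Feature Extraction ratios were also normalized differently, and an overlap of the arms leaves out the hybridised pairs. The levels after vehicle and after PACAP overlapped in 26 of the 26 genes measured throughout, beside 99.8% of all genes measured throughout. The span of the 4 vehicle levels had a median of 0.53 over these genes, between 0.09 for Col11a1 and 1.05 for Col17a1. It was larger than the size of the WT ratio at 30 min in 22 of the 26 genes, beside 80.1% of all genes, and larger than that of the KO ratio at 30 min in 22, beside 69%. The PACAP sample of WT at 30 min held the highest level of 17 of the 26 genes, beside 24.8% of all genes measured throughout. The PACAP sample of WT at 60 min held the lowest level of 11, beside 6.13%, and the vehicle sample of WT at 60 min the lowest of 5, beside 12.0%. The median deviation of the 26 genes from their own means over the 8 samples was 0.38 in the PACAP sample of WT at 30 min, -0.28 in that of WT at 60 min, and -0.22 in the vehicle sample of WT at 60 min. In the PACAP sample of KO at 30 min it was -0.08, and that sample held the lowest level of 6 of the 26 genes, beside 21.5% of all genes. The 4 samples of KO had deviations between -0.08 and 0.13.

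Without PACAP, most collagen levels lay lower at 60 than at 30 min, and no probe passed an adjusted p with the 4 vehicle samples alone. In WT, 21 of the 26 genes were lower in the vehicle sample at 60 min, with a median difference of -0.37, beside 51.0% of all genes. In KO 17 were lower, with a median of -0.14, beside 56.2%, and 14 were lower in both genotypes. The share of all genes lower in both genotypes was not computed, so this count of 14 has no background. A limma fit of 60 against 30 min over the 4 vehicle samples, with genotype as a block, found 0 of 37534 probes at an adjusted p below 0.05, and at an unadjusted p below 0.05 it found 8674, 23.1% of all probes, and 16 of 64 collagen probes. Of these 12 were lower, beside 12.3% of all probes, and 4 higher, beside 10.8%. Col17a1 had the smallest p of the collagen probes, with levels of 12.50 and 11.77 in WT and 12.81 and 11.98 in KO. Both vehicle levels of Col17a1 at 30 min lay above both at 60 min, by -0.78 ± 0.06 (SE) for 60 minus 30 min, with a limma adjusted p of 0.148. Col7a1 differed by -0.52 ± 0.06, Col16a1 by -0.39 ± 0.05 and Col28a1, a dim beaded-filament chain, by -0.35 ± 0.05, while Col8a2 at its second probe was higher by 0.57 ± 0.09, all with a limma adjusted p of 0.148. That Col8a2 probe was above background at 30 min on 1 of 2 arrays, and its vehicle differences were 0.22 (WT) and 0.26 (KO) on the first array of each pair but 0.66 and 1.15 on the second. When the PACAP samples were added to the fit with the hybridised pair as a random block, 4031 probes passed, 10.7% of all, and 8 collagen probes passed: Col8a2 at both probes, Col9a2 and Col26a1 higher, and Col4a5, Col4a6, Col19a1 and Col25a1 lower at 60 min. Col17a1 was not among them. The second Col4a6 probe, also measured throughout, had vehicle differences of 0.45 and 0.30 on the arrays in WT and of -0.09 and 0.19 in KO. The brightest Col25a1 probe was higher at 60 min, by 0.121 and 0.135 in WT and by 0.155 and 0.139 in KO vehicle samples. No probe of Col19a1 or Col25a1 was measured throughout. The differences of Col9a2 and Col26a1 came mainly from the second array of each pair, where those of the vehicle samples were 0.35 (WT) and 0.65 (KO) for Col9a2 and 0.44 and 0.62 for Col26a1. On the first array they were 0.13 and -0.03 for Col9a2 and -0.09 and 0.01 for Col26a1. The type VI chains went apart in the genotypes, with 60 minus 30 min differences of -0.52 in WT and 0.48 in KO for Col6a1 and of -0.23 and 0.84 for Col6a2.

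**Figure D3:**
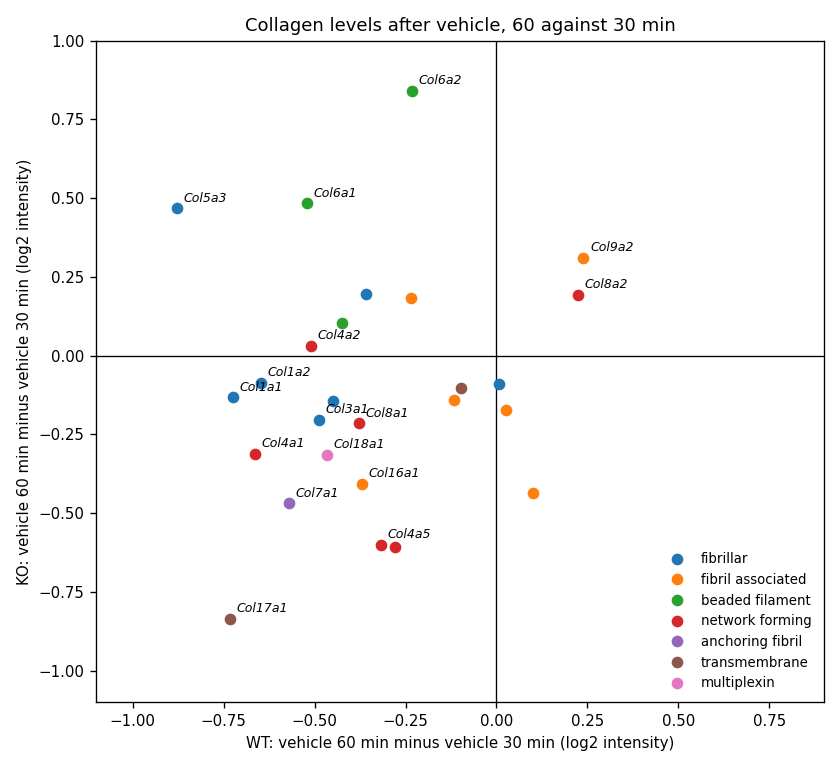
Difference in level (log2 intensity) between the vehicle samples at 60 and at 30 min, in WT (horizontal axis) and KO (vertical axis), for the 26 collagen genes measured throughout, coloured by class. Each point is 1 gene from 4 RNA samples. The lower left quadrant, lower at 60 min in both genotypes, holds 14 genes with Col17a1 farthest out, and Col8a2 and Col9a2 lie at the upper right.

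The vehicle levels of KO and WT were also set against each other, with 2 samples each. The limma fit found 0 of 37534 probes at an adjusted p below 0.05 and 2422 at an unadjusted p, 6.45% of all, among them 1 of 64 collagen probes. This was Col14a1, higher in KO by 0.26 ± 0.09 (SE) with a limma adjusted p of 0.769, and with vehicle levels of 10.28 and 10.17 in WT and 10.55 and 10.41 in KO. The other Col14a1 probe measured throughout differed by -0.04 ± 0.06, with a limma adjusted p of 0.970. Both KO levels lay above both WT levels for 5 of the 26 genes measured throughout (Col1a1, Col3a1, Col5a1, Col6a3 and Col14a1), beside 17.4% of all genes, and below them for 1 (Col4a2), beside 17.6%. Col3a1 was higher in KO by 0.58 ± 0.20, with a limma adjusted p of 0.769. Col5a1 was higher in KO by 0.40 ± 0.16, the second Col4a6 probe by 0.34 ± 0.15, and Col4a2 differed by -0.41 ± 0.20, with limma adjusted p between 0.789 and 0.819. Without the vehicle sample of WT at 30 min 6 of 64 collagen probes passed an unadjusted p below 0.05, all 6 higher in KO, beside 3.55% of all probes. With all 8 RNA samples and the pair as a random block 9 collagen probes passed it, 7 of them lower in KO, beside 26.2%.

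Lists of genes that make or bind collagen had medians of the same signs at 30 min as the collagens. Enzymes and chaperones of collagen synthesis and crosslinking, such as the prolyl hydroxylases and lysyl oxidases, had median ratios over 30 genes of 0.12 at 30 min and -0.04 at 60 min for WT, and -0.27 at 30 min and 0.06 at 60 min for KO, and 0 of them were called by either rule. The 15 fibril-binding proteoglycans and glycoproteins had medians of 0.25, -0.05, -0.28 and 0.12. By the wider rule Ogn (0.82), a small leucine-rich proteoglycan, and Postn (0.68), a matricellular protein, were called higher in WT at 30 min. Fn1 (fibronectin) was called lower in KO at 30 min (-0.67). Of the 10 collagen receptors, 1 was called, the receptor kinase Ddr1, lower in KO at 30 min (-0.60). Their medians were 0.06, -0.10, -0.24 and 0.02.

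Collagen-degrading enzymes and their inhibitors did not share 1 direction in KO at 30 min. Their median was 0.63 over 12 genes but -0.05 over the 6 measured throughout. The matrix metalloproteinase Mmp3 (2.52-fold) and the inhibitor Timp1 (3.50-fold), both measured throughout, were called higher there by the stricter rule, as were the dim Mmp13, Mmp9 and Mmp1b. Timp3, another inhibitor, was called lower by the wider rule (0.640-fold). On the scale of levels, Mmp3 was 10.87 after vehicle and 12.17 after PACAP, and Timp1 was 10.09 and 11.84. The 3 dim genes were well above background after vehicle on 1 of 2 arrays, so no fold is given. Their levels after vehicle and PACAP were 6.24 and 7.88 for Mmp13, 6.10 and 6.44 for Mmp9, and 6.11 and 6.58 for Mmp1b. In KO at 60 min Mmp13 (2.09-fold), Mmp3 (1.83-fold) and Timp1 (1.86-fold) were called higher by the wider rule, Mmp13 also by the stricter, and in WT 0 of the 12 genes were called at either time, with medians of 0.19 and -0.01.

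The median ratios of markers of several cell types had the signs of the collagens at 30 min, with members that split in some lists. Skeletal muscle genes had a median ratio of 0.90 in WT and of -0.90 in KO at 30 min. The wider rule called 7 of 8 higher in WT, beside 1.13% of all probes, and 6 of 8 lower in KO, beside 1.17%. All 8 were measured throughout, with 0 defining markers at 0, and their summed level ran from 16.3 to 16.9 over the vehicle samples and from 16.1 to 17.3 over the PACAP samples. Dermal fibroblast markers had 30 min medians of 0.18 (WT) and -0.21 (KO) over 8 genes, all measured throughout, with 0 called. Basal keratinocyte markers had medians of 0.21 and -0.56 over 5 genes, pericyte and smooth muscle markers 0.17 and -0.46 over 5, tendon markers 0.13 and -0.40 over 5, and Schwann cell markers 0.19 and -0.32 over 5. In the tendon list 3 of 5 had these signs in each genotype, while Tnmd (-0.28 in WT, 0.43 in KO) and Scx (-0.10 and 0.05) had the opposite ones, and the WT median was -0.07 on the first array. The WT ratio was above 0 for 7 of 8 fibroblast markers and for 3 of 5 pericyte and smooth muscle markers, and the KO ratio was below 0 for 5 and for 5 of them. In KO at 30 min the wider rule called Krt5 (-0.78) and Itga6 (-0.70) of the keratinocyte list lower, and Des (-0.73) of the pericyte and smooth muscle list. The summed level of the fibroblast markers was between 15.6 and 15.9 over both arms. The median of the 6 endothelial markers was between 0.00 and 0.02 in the 4 comparisons, with 3 markers above and 3 below 0 in each. At 30 min they ran from -0.37 (Kdr) to 0.46 (Cdh5) in WT and from -0.39 (Cdh5) to 0.38 (Pecam1) in KO. Hair shaft keratins had medians of 0.24, 1.92, 1.36 and -0.46, and so did not share the signs of the collagens. Adipocyte markers were at -0.15 and -0.01 at 30 min. Of the 10 cartilage markers 6 and of the 7 bone markers 2 were measured throughout. The 30 min medians in WT and KO were 0 and -0.24 over all 10 cartilage markers and 0 and -0.45 over all 7 bone markers. Over those measured throughout they were -0.01 and -0.24 for cartilage and 0.03 and -0.60 for bone. The cartilage list holds Col10a1, the hypertrophic cartilage chain left out of the collagen genes here, which was called lower in WT at 30 min (-1.35), in WT at 60 min (-0.68) and in KO at 30 min (-1.64), in the latter with PACAP above background on 1 of 2 arrays. The part of these cell types in the collagen ratios was not tested.

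Many of the other collagen probes were dim, some of them second probes of genes already described. Col9a3, a partner chain of Col9a2 in type IX collagen, was above background in 2 of 16 readings, with ratios between 0.00 and 0.08. In 12 of the 66 probes, of 11 genes (Col4a3, Col6a4, Col13a1, Col15a1, Col16a1, Col19a1, Col23a1, Col24a1, Col25a1, Col26a1 and Col27a1), the red channel was well above background on all 8 arrays and the green on none, as in 11.7% of all probes. The ratio of these probes had opposite signs on the swapped arrays in 9 of the 12 at 30 min and 9 at 60 min for WT, and 10 at 30 min and 11 at 60 min for KO. For Col15a1, a multiplexin near basement membranes, the 2 arrays gave 2.00 and -1.12 in WT at 30 min. For Col4a3, a chain of the kidney basement membrane, they gave -0.36 and 2.29, and the mean of 0.97 was the highest of the 41 genes in that comparison. Among the 33 probes well above background in every reading, the signs were opposite in 10, 14, 5 and 10 in the same order. At 2 probes, of Col6a6 and Col19a1, 0 of 16 readings were well above background.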

How the data were processed

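The authors hybridised the RNA of palm skin to Agilent 2-colour arrays and deposited scanner output with log10 ratios, a p-value per spot and signal intensity per channel (Agilent Feature Extraction, version 11.0.1.1 in the submitters' processing notes, build mm9). The scanner output itself names version 12.0.3.1. The deposited series table holds log10 ratios of the processed red over green signals and served as an alternative. In the scanner output the software had set the log ratio of 13.4% to 25.0% of the spots of an array to 0. Spots that the software marks as outliers were dropped, ratios were turned to PACAP over vehicle on the log2 scale by the dyes in the labels, and spots and then arrays were averaged. Where a gene has several probes, its brightest stands for it. Levels came from the deposited intensity (normexp with an offset of 50, loess, Aquantile). limma 3.58.1 in R 4.3.3 with Benjamini-Hochberg adjustment was used across all probes above background and was checked on simulated data. pandas 2.3.3, numpy 2.4.6, scipy 1.17.1 and matplotlib 3.10.9 under Python 3.11.15 served the rest. Every member could be named; values are given most fully for the 6 brightest, those past a rule and the chains of types I, III to VII and XVII, and the 5 smallest p in each fit are named. The members, classes and gene lists were chosen with earlier results of these data known. Nothing says that samples are separate animals, so p-values measure the spread between these RNA samples. Alternatives were other ratio normalizations, filters, fits, single arrays and samples left out.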

Additional observations from a re-analysis of the deposited data

Results flagged for a closer look

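In 4 collagen genes both arrays of WT at 30 min lay above 0 and both arrays of KO at 30 min below 0, with at least 1 of the 2 comparisons past the wider rule, beside 1.52% of all probes. The WT minus KO difference in the log2 ratio of PACAP over vehicle at 30 min was 1.38 for Col1a1, 1.44 for Col1a2, 1.42 for Col3a1 and 1.62 for Col22a1, whose other probe measured throughout gave 0.37. Over all genes measured throughout, the WT and KO ratios at 30 min correlated at -0.50. With 1 pair of RNA samples per genotype at 30 min, the difference at that time was not tested, and genotype and slide cannot be told apart.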

How the results depend on the processing

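With normexp and loess ratios, 57 in place of 138 probes passed the stricter rule in WT at 30 min, 170 in place of 273 in WT at 60 min, 164 in place of 279 in KO at 30 min and 72 in place of 115 in KO at 60 min, and by the wider rule 320 in place of 549 in WT and 660 in place of 1069 in KO at 30 min. Of the collagen probes 0 then passed the stricter rule in KO at 30 min, and 0 passed either rule in KO at 60 min, the latter also when only probes above background in both channels were kept. Col22a1 in KO at 30 min was then at -0.59 and Col6a5 in KO at 60 min at -0.55. The cause was not tested. Col1a1, Col1a2 and Col3a1 kept their calls of 1.5-fold under every alternative run on both arrays. The median over collagen genes was -0.11 in WT at 60 min and -0.28 in KO at 30 min over genes measured throughout (added after seeing the data), -0.11 and -0.29 with the filter on both channels, -0.29 in KO at 30 min with the series table, and -0.10 in KO at 30 min and 0.048 in KO at 60 min with normexp and loess.

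On single arrays the collagen probes past the stricter rule numbered 1 to 3 in WT and 1 to 3 in KO at 30 min and 1 to 4 in KO at 60 min, and past the wider rule 5 to 7 in WT at 30 min, 0 to 1 in WT at 60 min, 5 to 8 in KO at 30 min and 1 to 4 in KO at 60 min. Over all probes the stricter rule took 612 to 870, 679 to 837, 881 to 1197 and 446 to 701, and the wider rule 1829 to 2012, 1028 to 1217, 2817 to 3462 and 825 to 1106, in WT at 30 and 60 min and KO at 30 and 60 min. The collagen medians on single arrays were 0.089 to 0.22 in WT at 30 min (0.17 on both), -0.14 to -0.049 in WT at 60 min, -0.26 to -0.25 in KO at 30 min and 0.053 to 0.15 in KO at 60 min.

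The limma fit of the mean found 0 to 1 probes with a comparison left out (1 without WT at 30 min), and that of KO against WT 0 to 170 (170 without WT at 30 min, 83 without WT at 60 min) and 17 with time as a covariate. Over all 8 RNA samples with the pair as a random block, KO against WT levels found 2062 probes, and 60 against 30 min found 4031 with 8 collagen probes. Leaving out a vehicle sample was not run for time, since no residual degrees of freedom were left. Without KO at 30 min the median KO minus WT difference of the 54 collagen probes was 0.06 in place of -0.09, and in the vehicle fit of genotype the collagen probes at an unadjusted p went from 1 higher to 2 higher and 7 lower over all 8 samples. No paired analysis was possible by replicate number, because that number marks the dye orientation of the same RNAs, while the fit of the mean pairs PACAP with vehicle by hybridisation.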
